A study of Rattus norvegicus with 6 samples.

Results

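The circadian clock genes described here are 10 transcripts of the molecular clock, namely Arntl (the older symbol of Bmal1), Clock, Per1, Per2, Per3, Cry1, Cry2, Nr1d1, Nr1d2 and Dbp. They were chosen by name from textbook knowledge of the clock, with earlier results of these data known. All 10 were found among the 21857 gene symbols of the count tables. RNA-seq had been carried out on neonatal rat cardiac fibroblasts (NRCFs), a primary culture from the hearts of Sprague-Dawley pups no older than 3 days, although the strain label reads Noway. The 3 libraries of the Vector group (genotype label WT) came from cells given the empty plasmid, and the 3 libraries with the genotype label FTO overexpression came from cells given a plasmid with the rat FTO cDNA. FTO is an enzyme that removes N6-methyladenosine (m6A) from RNA. In the study's methods, cells were collected at a set interval after transfection. The sources used here give neither the hour of the day at collection nor a synchronising step. Whether the replicates were separate cultures is not stated, so the p-values measure only the spread between these libraries.

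The libraries held 13178952 to 17857999 counts. Fto itself was at 88.3 ± 1.20 counts per 1000000 library counts (CPM) in Vector and at 92.3 ± 1.32 CPM in the other group (SD, 3 libraries each), a fold change of 1.05 with a 95% confidence interval from 0.976 to 1.12 and an adjusted p of 0.239 in the edgeR quasi-likelihood test. No rise of Fto was detected, and the group is therefore called the libraries labelled FTO throughout. All levels are CPM after TMM scaling (trimmed mean of M-values), and every fold change is that of the libraries labelled FTO over Vector. Levels of different genes are not compared with each other, because CPM is not corrected for transcript length.

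The mammalian clock is a feedback loop of transcription. A dimer of CLOCK and BMAL1 (encoded by Arntl) binds E-box elements and switches on the Per, Cry, Nr1d1, Nr1d2 and Dbp genes. PER and CRY proteins then enter the nucleus and block that dimer, while REV-ERBα and REV-ERBβ (encoded by Nr1d1 and Nr1d2) bind ROR elements and repress Arntl, so that in a running clock Arntl peaks when Nr1d1, Dbp and the Per transcripts are low. Fibroblasts carry this loop in every cell, and in a dish without a synchronising stimulus the cells drift apart in phase, so that a bulk library averages over them.

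The core clock transcripts differed by small amounts and in both directions. Per1, Nr1d1 and Nr1d2 were higher in the libraries labelled FTO, by 24.4% to 52.6%, whereas Clock, Per2, Per3 and Cry2 were lower, by 13.3% to 25.9%. Arntl, Cry1 and Dbp did not pass the test. Thus 7 of 10 members had an adjusted p under 0.05, against 65.9% of the 12941 genes tested, with 3 higher against 33.2% of all genes and 4 lower against 32.8%. None of the 10 reached the threshold used in the study, a log2 fold change of at least 1 in either direction with p under 0.05, which 19.6% of all genes reached. In 9 of the 10 the CPM ranges of the groups were separate, against 70.3% of all genes. The median absolute log2 fold change was 0.33 over the members and 0.36 over all genes tested, so in number of calls and in size the members were close to the rest of the table.

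**Figure D1:**
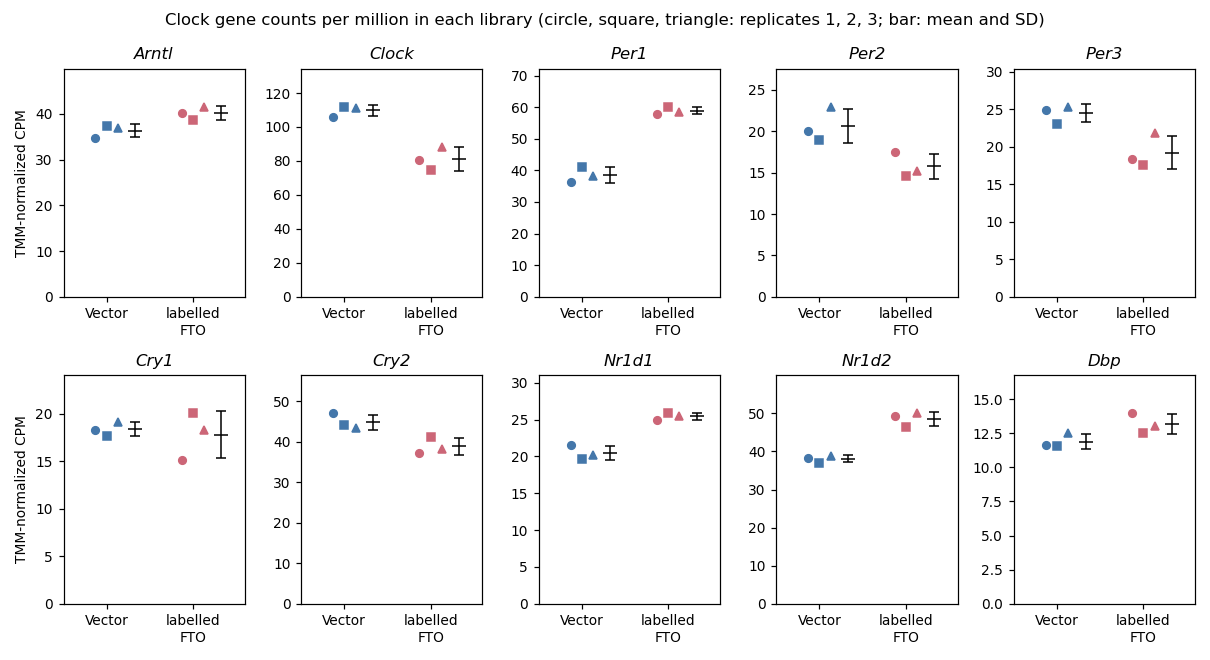
Level of each of the 10 clock genes, in TMM-normalized CPM on axes that start at 0, in the 3 Vector libraries (blue) and the 3 libraries labelled FTO (red), with the mean and SD of each group in black. Per1 has the largest fold change, from 38.6 ± 2.47 to 58.9 ± 1.17 CPM, and Cry1 is the only gene in which the points of the groups overlap.

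In the activating limb, the partners moved differently. Clock, whose protein is a histone acetyltransferase and the DNA-binding partner of BMAL1, was at 105.9, 112.0 and 111.4 CPM in the Vector libraries and at 80.7, 74.5 and 88.4 CPM in those labelled FTO. Every library labelled FTO lay below every Vector library, and the log2 fold change of -0.43 (SE 0.0603) had an adjusted p of 1.4e-05 in the edgeR test. Arntl was at 34.7, 37.4 and 36.8 CPM against 40.3, 38.7 and 41.6 CPM. The groups were separated by a narrow margin, and the log2 fold change of 0.15 (95% confidence interval 0.010 to 0.28) had an adjusted p of 0.0551 in edgeR, which missed the threshold. It passed with library size alone as the scaling (adjusted p 0.0449) and without FTO replicate 2 (adjusted p 0.0294), within a range of 0.0294 to 0.198 over 13 alternatives.

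The promoter sequence of Arntl is shown because its ROR element is the site at which the REV-ERB arm meets the activating limb. Promoter windows of RefSeq (build GRCr8, 250 bases before to 50 after an annotated start) were searched on both strands for the E-box CACGTG, its variant CACGTT, the D-boxes TTATGTAA and TTACGTAA, and the ROR elements TAGGTCA and TGGGTCA. The count tables carry no coordinates, and the submitters' processing notes name another build, rn6. A window was found for 9 of the 10 members (11 windows, Clock and Nr1d1 having more than 1 start), and 4 of these 9 genes, Arntl, Per2, Cry2 and Nr1d1, held a match. No matches among the members shared a base. Over all 33469 windows, 17.7% held any of the 6 motifs, which is a share by window and not by gene. The stretches of 30 bases around the matches in Arntl and Cry2 are given in gene orientation with the motif in capitals. Coordinates are those of the stretch. In Arntl (plus strand, chr1:176766298-176766327) the motif begins 16 bases before the start. In Cry2 (minus strand, chr3:98860632-98860661) it begins 212 bases before the start, and the E-box variant lies on the opposite strand.
Arntl: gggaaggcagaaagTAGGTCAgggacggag
Cry2: acacatggtgggAACGTGagggggcggggc
The TAGGTCA element of Arntl occurs in 2.63% of all windows. A match describes these letters only and does not show that a factor was bound.

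The period genes encode the inhibitors whose slow build-up times the loop, and they did not move together. Per1, which also answers within the hour to glucocorticoid and cAMP signals, was at 36.2, 41.1 and 38.3 CPM in Vector and at 57.9, 60.2 and 58.5 CPM in the libraries labelled FTO. The lowest of the latter stood well above the highest Vector library, and the fold change was 1.53 (95% confidence interval 1.39 to 1.67, adjusted p 4.9e-07 in edgeR). Per1 had the largest absolute change of the 10 members, and 32.2% of all genes tested changed by more.

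Per2 was at 20.0, 18.9 and 23.0 CPM in Vector and at 17.5, 14.6 and 15.2 CPM in the libraries labelled FTO. Per3, a weaker inhibitor whose loss hardly disturbs the rhythm, was at 24.9, 23.1 and 25.3 CPM against 18.4, 17.5 and 21.8 CPM. Both genes were lower in each library labelled FTO than in any Vector library, although the gap was narrow, with FTO replicate 1 closest to Vector for Per2 and FTO replicate 3 for Per3. The log2 fold changes were -0.39 (SE 0.101, adjusted p 0.00330 in edgeR) for Per2 and -0.34 (SE 0.0927, adjusted p 0.00488) for Per3. Within each library, the log2 ratio of Per1 to Per2 ran from 0.74 to 1.12 in Vector and from 1.73 to 2.05 in the libraries labelled FTO, a difference in mean of 1.002.

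The promoter of Per2 held both an E-box variant and a D-box, which are shown because Per2 has the only D-box match among the members. The stretches lie on the minus strand of chromosome 9. That around the D-box is chr9:99497167-99497196, with the motif beginning 192 bases before the start. That around the E-box variant is chr9:99497038-99497067, with the motif beginning 62 bases before the start.
Per2 D-box: ccatgtgcgtcTTATGTAAagagagcgacg
Per2 E-box variant: aacgcgcgcggtCACGTTttccactatgtg
TTATGTAA occurs in 0.893% of all windows and CACGTT in 4.83%. No match was found in the windows of Per1 and Per3, which says only that these letters are absent from this stretch.

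The cryptochromes are the stronger partners of the PER proteins in blocking CLOCK and BMAL1. Cry2 was lower, at 47.0, 44.1 and 43.5 CPM in Vector and 37.1, 41.2 and 38.3 CPM in the libraries labelled FTO. The groups did not overlap, and the log2 fold change of -0.21 (SE 0.0651) had an adjusted p of 0.0114 in edgeR. This is the smallest change among the called members, and without Vector replicate 1 its adjusted p was 0.0557, within a range of 0.00297 to 0.0557 over 13 alternatives. Cry1, which rises later in the cycle than the Per genes, was at 18.3, 17.6 and 19.1 CPM in Vector and spread from 15.1 to 20.0 CPM in the libraries labelled FTO, with the third library at 18.3 CPM. The groups overlapped, and the fold change of 0.969 had a 95% confidence interval from 0.832 to 1.13 (adjusted p 0.714 in edgeR). From a mean of 266 counts per library, the data allow changes in either direction within that interval.

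In the stabilising loop, the REV-ERB genes rose together. Nr1d1, the receptor REV-ERBα that represses Arntl and links the clock to metabolism and inflammation, was at 21.5, 19.7 and 20.2 CPM in Vector and at 25.0, 25.8 and 25.5 CPM in the libraries labelled FTO. Its paralogue Nr1d2 was at 38.2, 37.0 and 38.9 CPM against 49.3, 46.5 and 49.98 CPM. For both genes the libraries of each group lay close to each other and apart from the other group. The log2 fold changes were 0.31 (SE 0.0764, adjusted p 0.00205 in edgeR) and 0.35 (SE 0.0608, adjusted p 0.00011), and the log2 ratio of Nr1d1 to Nr1d2 differed between the groups by only -0.038, with overlapping ranges.

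Counts of Nr1d1 carry a limit of their own. Of the 10 members it is the only one whose gene overlaps, in RefSeq GRCr8, another gene with counts in these tables, and that is Thra, the thyroid hormone receptor α gene on the opposite strand. Thra, too, was higher, at 32.4 ± 3.09 CPM in Vector and 49.3 ± 4.75 CPM in the libraries labelled FTO (log2 fold change 0.61, adjusted p 1.3e-05 in edgeR). The use of strand in counting is not stated, so reads from the shared stretch cannot be told apart. Nr1d2 has no such neighbour.

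Nr1d1 has a pair of annotated starts. The 250 bases before the upstream start (minus strand, chr10:84231813-84232062) are shown in full so that the surroundings of a match can be read, with the reverse complement of the E-box variant CACGTT in capitals 174 bases before the start. The 30 bases around the perfect E-box are chr10:84229628-84229657, with the motif beginning 191 bases before the downstream start.
Nr1d1 upstream start: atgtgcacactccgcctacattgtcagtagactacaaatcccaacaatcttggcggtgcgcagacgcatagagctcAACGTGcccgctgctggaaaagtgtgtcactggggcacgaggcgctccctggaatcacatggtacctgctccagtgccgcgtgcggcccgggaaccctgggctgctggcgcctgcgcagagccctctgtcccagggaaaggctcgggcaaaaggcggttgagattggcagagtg
Nr1d1 downstream start: tgtcagctcccaCACGTGtctggggatcct
CACGTG occurs in 6.42% of all windows.

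Dbp encodes a PAR bZIP activator that passes the rhythm on through D-box elements, and its transcript has among the widest daily swings of the clock in many tissues. Here it was at 11.6, 11.5 and 12.5 CPM in Vector and at 14.0, 12.5 and 13.1 CPM in the libraries labelled FTO. The lowest library labelled FTO and the highest Vector library were almost equal. The fold change was 1.11 with a 95% confidence interval from 0.955 to 1.29 and an adjusted p of 0.206 in edgeR, from a mean of 185 counts per library.

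To ask whether the groups were caught at different phases, the Per, Nr1d and Dbp transcripts were set against Arntl within the same library. In a running clock they are low when Arntl peaks, but their own peaks need not coincide. The size of such a ratio depends on transcript length, so only its difference between the groups is read. The log2 ratio of Per1 to Arntl was 0.085 ± 0.044 in Vector and 0.55 ± 0.075 in the libraries labelled FTO (SD, n = 3), and that of Nr1d2 was 0.068 ± 0.078 against 0.27 ± 0.016. Both were higher in every library labelled FTO. The ratios of Per2 and Per3 went the other way, from -0.82 ± 0.15 to -1.35 ± 0.13 and from -0.57 ± 0.11 to -1.07 ± 0.12, again without overlap. For Nr1d1 the ratio was -0.83 ± 0.12 against -0.66 ± 0.065, with overlap, because Vector replicate 1 stood at -0.69. For Dbp, the means were -1.61 in both groups, a difference of 0.000788. The ratio of Cry1, which peaks later, was -0.98 ± 0.088 against -1.19 ± 0.23, with overlap, and that of Cry2 was not computed.

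Of the 6 ratios of the Per, Nr1d and Dbp transcripts, therefore, some were higher, some were lower and that of Dbp hardly differed. These ratios are a description, with no test. With a single collection point per group and no hour of collection in the sources, a phase could not be fitted, and a difference in collection phase was not tested. Leaving out each library in turn, the difference lay between 0.42 and 0.50 for Per1, -0.62 and -0.47 for Per2, and -0.57 and -0.45 for Per3. It lay between 0.12 and 0.24 for Nr1d1 and between 0.16 and 0.24 for Nr1d2, while that of Dbp ran from -0.043 to 0.032 and so turned its sign.

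**Figure D2:**
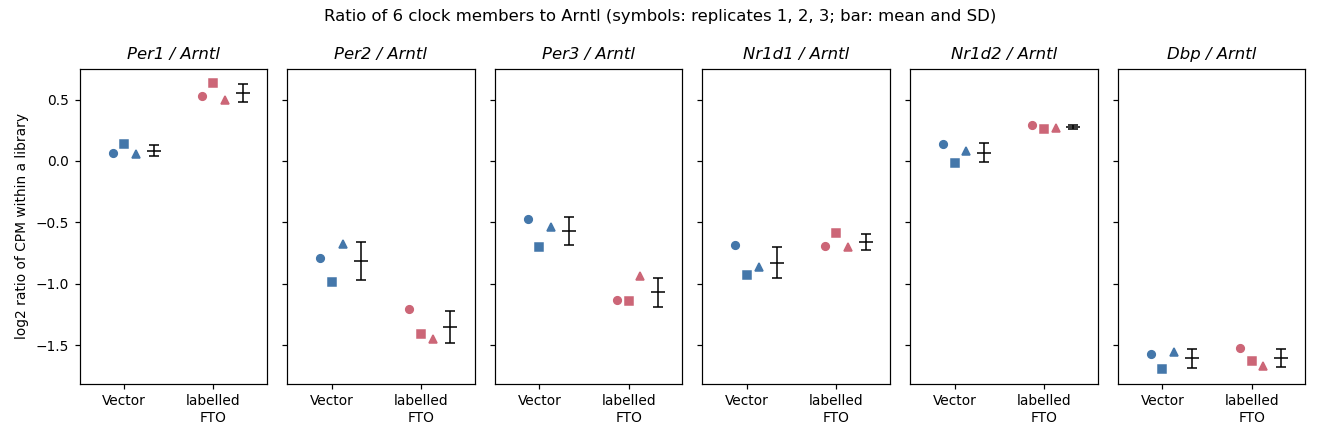
Log2 ratio of CPM of Per1, Per2, Per3, Nr1d1, Nr1d2 and Dbp to Arntl within each library, for 3 Vector libraries (blue) and 3 libraries labelled FTO (red), with mean and SD in black. Per1 and Nr1d2 are higher, Per2 and Per3 lower, and Dbp level at -1.61 in both groups.

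Among the clock network genes listed here, the largest changes lay outside the 10 members. Of 13 other genes of the clock loops, 11 had enough counts to be tested, and 7 were called, 5 higher and 2 lower, again close to the 65.9% over all genes. By the study's threshold, 3 of the 11 passed, against 19.6% of all genes. Npas2, a paralogue that can replace CLOCK as the partner of BMAL1, was at 2.49, 2.75 and 3.60 CPM in Vector and at 18.6, 21.8 and 23.6 CPM in the libraries labelled FTO. Each of the latter was several times the highest Vector library, and the fold change was 7.22 (95% confidence interval 5.80 to 8.99, adjusted p 1.4e-10 in edgeR). A larger absolute change was seen in 4.17% of all genes tested. Clock and Npas2 thus moved in opposite directions, and the log2 ratio of Npas2 to Clock rose from -5.24 ± 0.25 to -1.93 ± 0.17.

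Bhlhe41 and Bhlhe40 encode DEC2 and DEC1, repressors that compete with CLOCK and BMAL1 for E-boxes, and they too moved apart. Bhlhe41 was at 20.6, 22.0 and 25.4 CPM in Vector and at 4.42, 4.61 and 3.29 CPM in the libraries labelled FTO. Vector was 5.60-fold higher (log2 fold change -2.48, SE 0.136, adjusted p 2.7e-10 in edgeR), and 5.42% of all genes tested had a larger absolute change. Bhlhe40, which is also known to be induced by hypoxia and cytokines, was at 86.4, 82.3 and 86.5 CPM against 127.2, 123.8 and 108.3 CPM, a fold change of 1.41 (95% confidence interval 1.28 to 1.54, adjusted p 3.7e-06). No library of either group overlapped with the other group in any of these genes. The windows of both hold the E-box CACGTG, which is shown for the contrast between them. The motif begins 48 bases before the start of Bhlhe41 (stretch shown: minus strand, chr4:180569386-180569415). In Bhlhe40 it begins 220 bases before the start (stretch shown: plus strand, chr4:143174218-143174247).
Bhlhe41: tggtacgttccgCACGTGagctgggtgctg
Bhlhe40: agcgttgtccaaCACGTGagactcatgtga

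**Figure D3:**
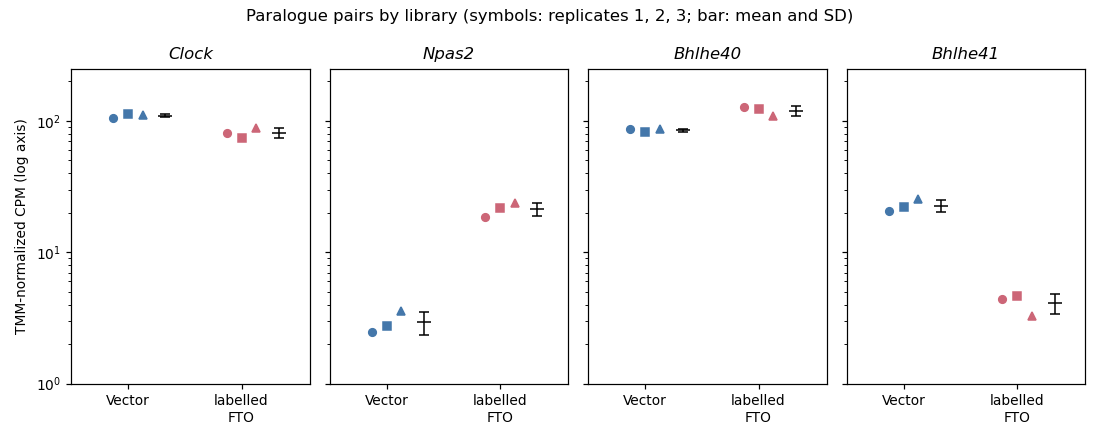
CPM on a log axis of Clock and its paralogue Npas2, and of Bhlhe40 and its paralogue Bhlhe41, in 3 Vector libraries (blue) and 3 libraries labelled FTO (red), with mean and SD in black. Npas2 lies near 3 CPM in Vector and near 21 CPM in the libraries labelled FTO, while Bhlhe41 falls from 22.7 ± 2.46 to 4.11 ± 0.709 CPM.

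Nfil3, a repressor that competes with DBP for D-boxes, rose from 16.1 ± 0.628 to 25.8 ± 2.69 CPM (log2 fold change 0.68, SE 0.0919, adjusted p 1.1e-05 in edgeR). Among the ROR receptors, which activate Arntl at the elements that REV-ERB proteins repress, Rora was at 4.74 ± 0.979 and 6.61 ± 0.838 CPM (adjusted p 0.0214), a call that was lost without Vector replicate 1 (adjusted p 0.110), FTO replicate 1 (0.0501) or FTO replicate 3 (0.0910). Rorb rose by 1.61 on the log2 scale, but from a mean of only 12.8 counts per library. Timeless, better known for its part in replication forks than in the mammalian clock, fell by 0.40 on the log2 scale (adjusted p 0.00022). Rora, Rorb and Timeless were picked with their values in view.

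The remaining loop genes were not called. Tef, a PAR bZIP factor like DBP, was at 33.9 ± 1.55 and 35.9 ± 3.07 CPM (fold change 1.06, 95% confidence interval 0.947 to 1.18). Ciart, a repressor of CLOCK and BMAL1 whose window held 3 copies of CACGTG, was at 5.87 ± 1.14 and 4.93 ± 0.285 CPM (0.846, 0.664 to 1.08). Arntl2, the paralogue of Arntl, was at 4.23 ± 0.598 and 2.85 ± 1.06 CPM (0.691, 0.487 to 0.981) with an adjusted p of 0.0600 in edgeR, and Tipin, the partner of TIMELESS, was measured from only 35.3 counts per library. Arntl2 passed without FTO replicate 3 (adjusted p 0.00237), with no filter on low counts (0.0313) and with the replicate number as a block (0.0245), within a range of 0.00237 to 0.230. Hlf, the last of the PAR bZIP genes, had at most 3 counts in any library and was not tested.

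**Figure D4:**
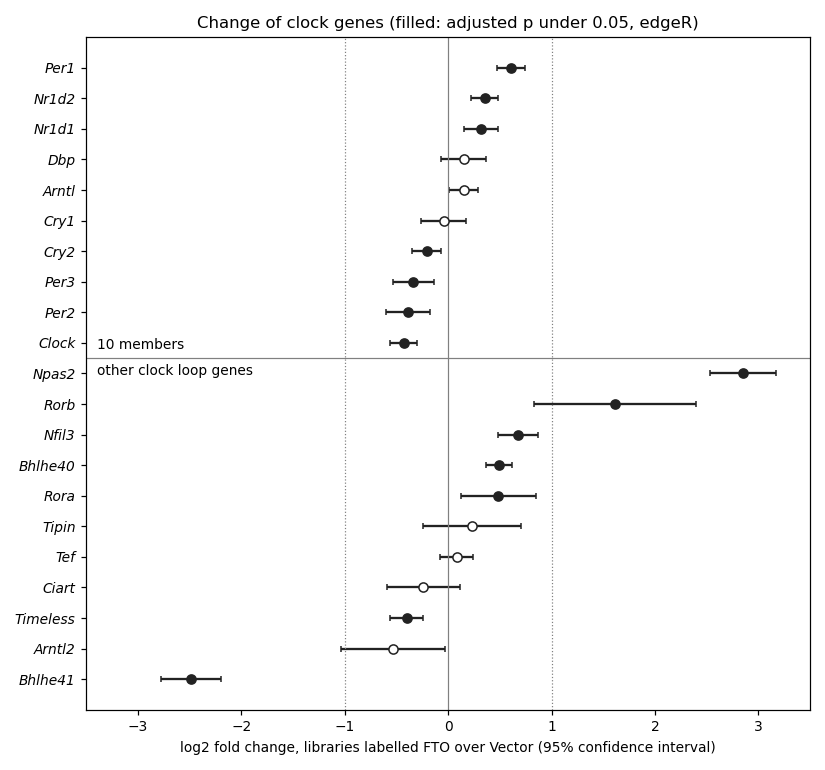
Log2 fold change with its 95% confidence interval for the 10 members (top) and the 11 other clock loop genes tested (bottom), filled where the adjusted p in edgeR was under 0.05, with dotted lines at a log2 fold change of 1 in either direction. The members lie between -0.43 and 0.61, while Npas2 (2.85), Rorb (1.61) and Bhlhe41 (-2.48) lie beyond the dotted lines.

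Proteins of the clock are paced by enzymes that modify them, most of them kinases and ubiquitin ligases. A list of 15 such genes was examined, in which Usp2, Usp7 and Sirt1 encode neither kinases nor ubiquitin ligases. Of the 15 genes, 8 were called (53.3%, against 65.9% of all genes), 3 higher and 5 lower, with a median log2 fold change of -0.028. Btrc encodes β-TrCP1, the ubiquitin ligase subunit that recognises phosphorylated PER, and it rose from 39.1 ± 1.62 to 90.7 ± 1.75 CPM, a fold change of 2.32 (95% confidence interval 2.14 to 2.52, adjusted p 2.8e-11 in edgeR). The absolute change was larger than that of Btrc in 15.8% of all genes tested. Its paralogue Fbxw11 was at 114 ± 3.79 and 120 ± 5.13 CPM and was not called (adjusted p 0.207).

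Csnk1e, the casein kinase 1ε gene, fell from 56.8 ± 4.58 to 43.6 ± 1.60 CPM (log2 fold change -0.38), while Csnk1d, the paralogue that phosphorylates the same PER proteins, rose from 171 ± 3.16 to 195 ± 0.825 CPM (0.19, adjusted p 9.2e-04 in edgeR). Prkaa1, a catalytic subunit of AMPK, which phosphorylates CRY1, fell by 0.31 on the log2 scale. Fbxw11 and Csnk1d were added as paralogues after their values were known.

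Genes that the clock drives in many tissues likewise went both ways. Of 12 on the list, 11 were tested and 7 were called, 4 higher and 3 lower, a share of 63.6% that is close to the 65.9% of all genes. The lists share genes, as Usp2 is also counted among the modifiers above and Tsc22d3 among the input genes below. Nampt, the rate-limiting enzyme of NAD salvage with E-boxes in its promoter, rose from 63.8 ± 1.03 to 262 ± 5.13 CPM, a fold change of 4.10 (95% confidence interval 3.84 to 4.38). A larger absolute change than that of Nampt was seen in 7.54% of all genes tested. Dtx4, a ubiquitin ligase gene of the Deltex family, and Gadd45a, a stress and DNA damage response gene, rose by 1.14 and 0.93 on the log2 scale. In contrast, Wee1, a cell cycle kinase under E-box control, was at 29.7 ± 2.51 and 28.7 ± 3.24 CPM (fold change 0.966, 95% confidence interval 0.846 to 1.10), and Usp2, one of the most widely rhythmic transcripts, was at 8.93 ± 0.957 and 9.89 ± 1.12 CPM (1.11, 0.915 to 1.34). Wee1 and Usp2 were picked with their values in view, and neither passed the test (adjusted p 0.647 and 0.333 in edgeR).

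Per1 can be induced directly by glucocorticoid and by cAMP, and 12 genes of these inputs were examined beside it. All 12 were called, 7 higher and 5 lower, against 65.9% of all genes. The count was 11 in 7 of 13 alternatives, in which Nr4a1, an immediate early gene with an adjusted p of 0.0461 in edgeR, lost its call (range 0.0178 to 0.199), among them those without Vector replicate 1, 2 or 3 and without FTO replicate 1 or 2. The glucocorticoid receptor gene Nr3c1 rose from 107 ± 1.30 to 271 ± 11.1 CPM (log2 fold change 1.34, adjusted p 6.9e-13 in edgeR). The receptor's targets Sgk1 and Zbtb16 rose by 1.27 and 1.29, and Fkbp5 by 0.73, on the log2 scale. Klf9 and Tsc22d3, also targets of that receptor, fell by 0.44 and 0.69. Of the genes driven by cAMP or serum, Crem and Sik1 rose by 0.60 and 0.95, while Fos fell from 18.3 ± 1.88 to 4.24 ± 0.202 CPM (log2 fold change -2.10) and Egr1 by 0.33. Fkbp5, Klf9, Tsc22d3, Crem, Sik1, Egr1 and Nr4a1 were picked with their values in view. Neither branch moved in a single direction, and whether any of these genes bears on the rise of Per1 was not tested.

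**Figure D5:**
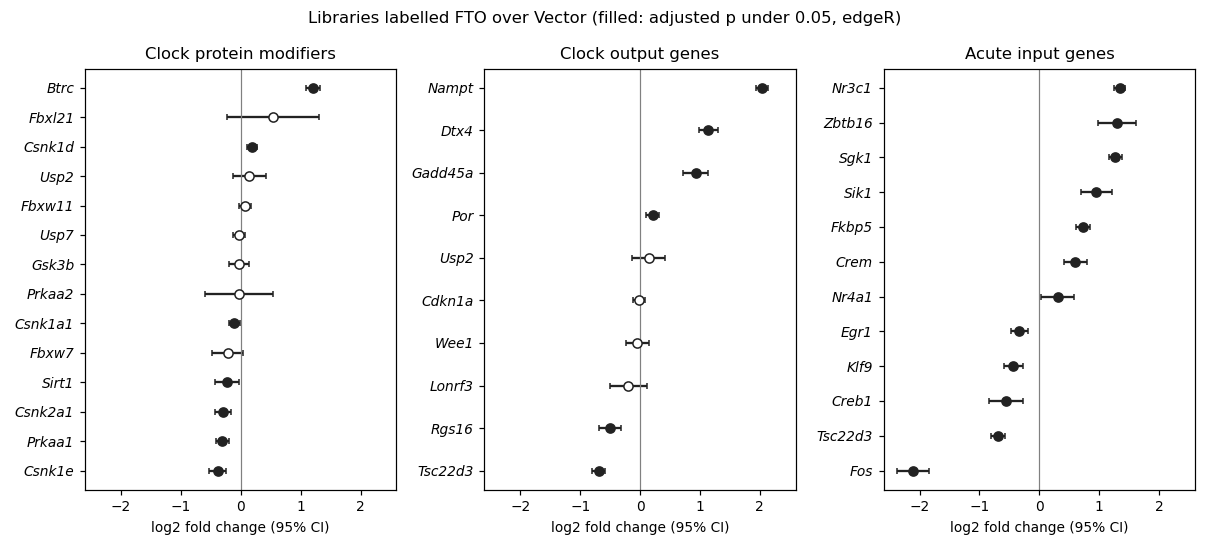
Log2 fold change with 95% confidence interval of 14 clock protein modifiers, 10 clock output genes and 12 genes of the inputs to Per1, filled where the adjusted p in edgeR was under 0.05. Each panel holds changes in both directions, from -0.38 (Csnk1e) to 1.21 (Btrc), from -0.69 (Tsc22d3) to 2.04 (Nampt) and from -2.10 (Fos) to 1.34 (Nr3c1). Usp2 is plotted with both modifiers and output genes, and Tsc22d3 with both output and input genes.

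Markers of cell types moved with the groups, and their counts of calls stand against 65.9% of all genes. The cultures held fibroblast transcripts in every library, and the 10 fibroblast markers were all called, 5 higher and 5 lower. Their summed level was 41420 to 42000 CPM in Vector and 21580 to 22560 CPM in the libraries labelled FTO. Each such sum is weighted to the most abundant genes. Here the mean of Col1a1 alone fell from 25810 to 8268 CPM, while that of Dcn rose from 47.0 to 5611 CPM. Of 10 macrophage markers, 9 were lower and 1 higher, and their sum ran from 1685 to 1747 CPM in Vector and from 237.6 to 268.4 CPM in the libraries labelled FTO. Of 8 cardiomyocyte markers tested, 7 were higher and 1 lower, with sums of 1513 to 1546 and 2280 to 2324 CPM. Endothelial markers summed to 111.9 to 116.5 and 102.3 to 110.7 CPM, with 3 higher and 1 lower of 5 tested. Most of that sum was Flt1, the lower marker, at a mean of 94.3 CPM in Vector and 63.5 CPM in the libraries labelled FTO. Mural markers summed to 1587 to 1648 and 1314 to 1400 CPM, with 3 higher and 4 lower of 7 tested. No marker with a row was at 0 in every library. A change in the number of cells of a type and a change in marker RNA per cell cannot be told apart in such bulk libraries. The part of these shifts in the clock gene values was not tested.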

How the data were processed

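The authors deposited raw counts, a whole number per gene symbol, in a file for each of the 6 libraries. The submitters' processing notes name Trimmomatic and the genome build rn6. The aligner, counting program, annotation and strand setting are not given in the sources used here. Members were matched by symbol, and the members and gene lists were chosen with earlier results of these data known.

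Groups came from the genotype labels. Genes were kept with filterByExpr at a minimum count of 10 (12941 genes) and scaled by TMM. The groups were compared with the quasi-likelihood test of edgeR 4.0.16 in R 4.3.3, two-sided, with no covariate, followed by Benjamini-Hochberg adjustment across the 12941 genes. Each SE is the absolute log2 fold change divided by the square root of F. Counts of replicate pairs differed by more than sampling noise (chi-square per degree of freedom 1.56 to 8.02). A floor of 3 counts equals 0.168 to 0.227 CPM, and intervals cover counting error and replicate spread only.

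Besides the 10 members, the rule named up to 4 called genes of each list with the largest change and at least 30 counts on average, and each loop gene not called. Alternatives were DESeq2 1.42.0, limma-voom (limma 3.58.1), other scalings and filters, a replicate block and leaving out each library. The procedure was also run on simulated counts with far fewer changed genes than were called here and larger changes than the members show. That run therefore does not bear on the calls of the members. Some genes of the lists are not reported here by name.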

Additional observations from a re-analysis of the deposited data

How the results depend on the processing

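The count of clock members past the adjusted threshold was 6 to 8 over 13 alternatives, against 7, and none of them brought a member past the study's threshold. The count over all genes ran from 7795 (DESeq2) to 9009. Of 57 genes followed singly, 13 changed in at least 1 alternative, as 22 calls were lost, 5 were gained and 7 signs turned. The signs turned on leaving out a single library and concerned genes that were not called. The log2 fold changes then ran from -0.13 to 0.050 for Cry1, -0.091 to 0.064 for Gsk3b, -0.066 to 0.0048 for Usp7, -0.25 to 0.25 for Prkaa2 (positive at 0.17 without Vector replicate 3), -0.14 to 0.0060 for Wee1 and -0.065 to 0.0076 for Cdkn1a. The cause was not tested.

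The replicate numbers did not pair the libraries, as deviations from the group means correlated at -0.069 to 0.021 for the same number and at -0.094 to 0.087 for different numbers. A fit with a replicate block passed 8399 genes and 7 of the 10 members, and 8 of the other loop genes against 7. Depth limits Rorb, Tipin, Fbxl21 and Hlf most.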
